A study of Bos grunniens with 18 samples.

Results

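Interferon-stimulated genes were followed in the whole blood of yak cows across anestrus, estrus and pregnancy. The rule named 10 genes of this class and took the rows of the deposited gene table that carry these names. It found 8 of them among the 20607 genes of the table, namely ISG15, MX1, RSAD2, IFI6, IFI44L, USP18, CMPK2 and OAS2. MX2 and IFI44 were not analysed here under these names. All 8 passed the filter on low counts, which left 14508 genes for testing.

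The study collected blood from female yaks (Bos grunniens) aged 4 to 8 years in anestrus (Y-A), in estrus (Y-E) and in pregnancy (Y-P), with 6 libraries per stage and 18 in all. According to the methods, estrus was synchronised with a progesterone pessary, PGF2α and GnRH, the blood of 6 cows was tracked, and the cows were in their second year of calving. The labels give the stage and a replicate number for each library, and they do not say that the number marks the cow. The day of pregnancy at which the blood was drawn is not given in the sources used here.

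Interferon tau is the pregnancy recognition signal of ruminants. The trophoblast of the elongating conceptus secretes it, and it acts on the uterus so that the corpus luteum is kept. It binds the type I interferon receptor, whose kinases JAK1 and TYK2 pass the signal to a transcription factor complex that holds STAT2 and IRF9 and switches on interferon-stimulated genes. In cattle and sheep some of these genes, ISG15, MX1, MX2 and OAS1 among the best known, rise in circulating leukocytes for a limited time in early pregnancy. The same genes respond to any type I interferon, including that made during viral infection. The comparisons below ask whether blood of the Y-P stage held more of these transcripts than blood of the other stages.

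Each library held 30247267 to 48401076 counts. Levels of a gene are given as CPM, its counts relative to the library total after TMM scaling. The smallest count of any of the 8 genes in any library was 116, for IFI6, against a detection floor of 3 counts. The stages differed in their blood cell markers as well. The summed CPM of 4 neutrophil markers ran from 3237 to 7924 in Y-A, 4271 to 10254 in Y-E and 2426 to 5008 in Y-P, that of 4 T cell markers from 618 to 783, 593 to 785 and 692 to 1311, and that of 4 markers of red cell precursors from 438 to 10498, 92.1 to 4471 and 39.0 to 122. In bulk blood, fewer cells of a type and less RNA per cell cannot be told apart.

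The 8 genes lie on 7 chromosomes of the genome annotation in the deposited table, and none overlaps another annotated gene. RSAD2 (chromosome 9, 116533031 to 116548397, minus strand) and CMPK2 (chromosome 9, 116571873 to 116589431, plus strand) are next to each other and point away from one another. ISG15 is on chromosome 14 (49624726 to 49626419), IFI6 on chromosome 2 (12024953 to 12028304), IFI44L on chromosome 3 (71412244 to 71431375), USP18 on chromosome 5 (28072493 to 28092171) and OAS2 on chromosome 16 (67958981 to 67981366), all on the minus strand. MX1 on chromosome 1 (154390903 to 154484561, plus strand) spans 93659 bp with 4 transcripts. In the RefSeq order of yak genes MX2 stands between MX1 and FAM3B, whereas in the deposited table MX1 is directly followed and preceded by TMPRSS2 and FAM3B. Whether the MX1 counts include reads of the related MX2 was not tested.

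Over the 18 libraries no member of the set passed the threshold in any comparison. The rule for a call was an adjusted p under 0.05 in edgeR's quasi-likelihood test together with a change of 2-fold or more in either direction. In Y-P vs. Y-A 0 of 8 genes were called, where 1.43% of all tested genes were. The count was 0 of 8 against 2.67% in Y-P vs. Y-E, and in Y-E vs. Y-A 0 of 8 against 0.0138%. These 2 calls over all genes in Y-E vs. Y-A became 18 without Y-E replicate 6, which had 8.36% of its counts in hemoglobin complex genes against a Y-E median of 0.452%, and 0 of the 8 were called there too. At an unadjusted p under 0.05 the number of the 8 genes was 0, 1 and 0, where 22.7%, 29.3% and 6.2% of all tested genes lay under that value. DESeq2 and limma on the deposited FPKM also called 0 of the 8 in each comparison. With so small a share of all genes called, 0 of 8 does not set these genes apart from the rest.

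The signs of the differences did not agree between the comparisons. In Y-P vs. Y-A 3 genes had a log2 fold change above 0 and 5 below it, with a median of −0.29, while the median of all tested genes was 0.03. A fit blocked by replicate number gave the 8 a median of −0.0029 and ISG15 a log2 fold change of 0.15, and with scaling by library size alone the median of the 8 was −0.06 and that of all tested genes 0.19. All 8 lay above 0 in Y-P vs. Y-E, with a median of 0.48, and in Y-E vs. Y-A all 8 lay below 0 with a median of −0.60. These comparisons share libraries, so the patterns are not independent of one another. The 95% intervals were wide, as the plot of fold changes shows. For ISG15 in Y-P vs. Y-A the interval ran from −2.18 to 0.76. A difference of more than 2-fold upwards lay outside it and a difference of more than 2-fold downwards did not. This estimate of −0.71 was 0.23 without Y-A replicate 1, so the place of the interval depended on that library. In Y-P vs. Y-E the interval of ISG15 ran from −1.42 to 1.52 and held 2-fold differences in both directions.

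**Figure D1:**
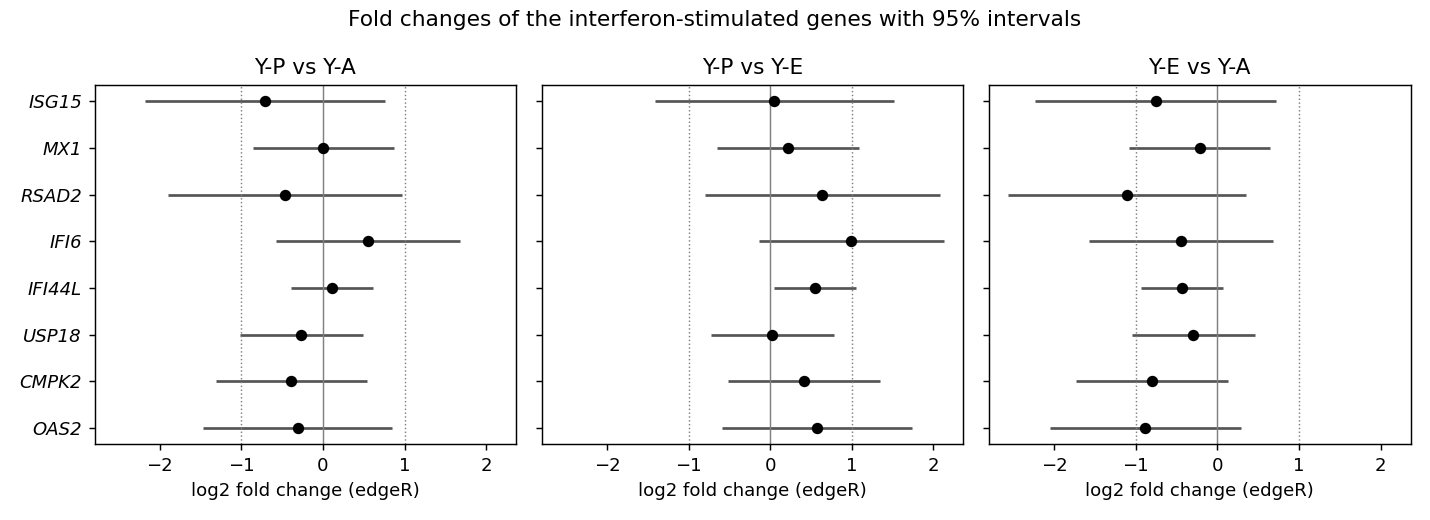
Log2 fold change (x axis) of each of the 8 genes (y axis) in the 3 comparisons, from edgeR over 18 libraries. Points are estimates, bars are 95% intervals, and dotted lines mark a log2 fold change of −1 and 1. All intervals include 0 except that of IFI44L in Y-P vs. Y-E (0.04 to 1.06).

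ISG15 encodes a ubiquitin-like protein that is attached to other proteins, and it is the gene most often measured for interferon tau in ruminant blood. Its level ran from 7.39 to 148 CPM in Y-A with a median of 17.1, from 6.06 to 49.1 CPM in Y-E with a median of 21.3, and from 6.83 to 52.3 CPM in Y-P with a median of 25.3. The stages overlapped almost completely, and each held libraries under 10 CPM. In Y-P, replicates 2, 3 and 4 stood at 52.3, 39.3 and 42.4 CPM while replicates 1, 5 and 6 stood at 7.42, 6.83 and 11.3 CPM. The log2 fold change of ISG15 was −0.71 in Y-P vs. Y-A (SE 0.70, adjusted p = 0.598) and 0.05 in Y-P vs. Y-E (SE 0.70, adjusted p = 0.974) by edgeR.

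USP18, the protease that removes ISG15 from its targets and also dampens signalling at the receptor, had stage medians close together. It ran from 21.4 to 93.8 CPM in Y-A (median 30.4), 23.0 to 56.0 CPM in Y-E (median 31.6) and 19.7 to 72.1 CPM in Y-P (median 28.9). The 3 medians lay within 3 CPM of each other. The log2 fold change was −0.26 in Y-P vs. Y-A (95% interval −1.02 to 0.49) and 0.03 in Y-P vs. Y-E (−0.73 to 0.78).

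MX1, a dynamin-like GTPase that blocks viral ribonucleoproteins, was the most abundant of the 8. Its level was 373 to 1403 CPM in Y-A (median 501), 363 to 991 CPM in Y-E (median 538) and 271 to 1654 CPM in Y-P (median 598). The lowest and the highest of the 18 libraries were both from pregnancy, replicates 5 and 4. The log2 fold change was 0.00 in Y-P vs. Y-A (95% interval −0.86 to 0.87) and 0.22 in Y-P vs. Y-E (−0.65 to 1.08).

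OAS2 makes the oligoadenylates that activate RNase L. It ran from 27.9 to 207 CPM in Y-A (median 50.2), 32.0 to 81.7 CPM in Y-E (median 41.1) and 15.9 to 201 CPM in Y-P (median 47.8). Y-A replicate 5 at 162 CPM and Y-P replicate 4 at 201 CPM stood with Y-A replicate 1 above all others. The log2 fold change of OAS2 was −0.31 in Y-P vs. Y-A (SE 0.55, edgeR adjusted p = 0.789) and 0.57 in Y-P vs. Y-E (SE 0.56, edgeR adjusted p = 0.541).

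The neighbours RSAD2, which encodes viperin, a radical SAM enzyme that makes a chain-terminating nucleotide, and CMPK2, a mitochondrial nucleotide kinase that supplies its substrate, moved together across libraries, with a correlation of log2 CPM of 0.879 over the 18 libraries and of 0.589 over the 16 without Y-A replicate 1 and Y-P replicate 4. RSAD2 ran from 12.9 to 164 CPM in Y-A (median 17.7), 8.80 to 46.9 CPM in Y-E (median 15.2) and 9.36 to 108 CPM in Y-P (median 15.7). CMPK2 ran from 32.5 to 148 CPM in Y-A (median 43.6), 18 to 56.9 CPM in Y-E (median 32.8) and 21.4 to 130 CPM in Y-P (median 32.0). For both genes the stage medians were close while the highest library of Y-A and that of Y-P stood far above the rest. The log2 fold change in Y-P vs. Y-A was −0.47 for RSAD2 (95% interval −1.90 to 0.97) and −0.39 for CMPK2 (−1.31 to 0.54).

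IFI6, a small mitochondrial and endoplasmic reticulum protein that counters apoptosis and viral replication, had stage medians that differed most in relative terms. Its values were 51.4, 7.68, 5.22, 3.90, 6.86 and 4.76 CPM in Y-A replicates 1 to 6. They were 10.7, 8.57, 9.42, 8.25, 13.7 and 7.99 CPM in Y-E, and 9.40, 31.5, 15.0, 34.0, 17.0 and 10.1 CPM in Y-P. Thus 5 of 6 Y-A libraries lay below every Y-P library, an arrangement found in 3.86% of all tested genes, and Y-A replicate 1 lay above all others. The same 5 Y-A libraries lay below every Y-E library too, so this arrangement was not particular to pregnancy. Over the 18 libraries the log2 fold change was 0.55 in Y-P vs. Y-A (SE 0.54, edgeR adjusted p = 0.589) and 0.997 in Y-P vs. Y-E (SE 0.54, edgeR adjusted p = 0.238). Without Y-A replicate 1 the log2 fold change in Y-P vs. Y-A was 1.76 with an edgeR adjusted p of 0.00944, which is past both thresholds, and that in Y-P vs. Y-E was 0.99 with an adjusted p of 0.0331. Without Y-P replicate 4 the log2 fold change in Y-P vs. Y-A was 0.32, the lowest of the fits that leave out 1 library. Over all alternatives the adjusted p of IFI6 ran from 0.00944 to 0.798 in Y-P vs. Y-A and from 0.0331 to 0.412 in Y-P vs. Y-E.

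IFI44L, an interferon-induced protein that feeds back on the antiviral response, was the least variable of the 8 between libraries of one stage. It ran from 49.9 to 118 CPM in Y-A (median 51.9), 36.5 to 67.2 CPM in Y-E (median 45.2) and 48.3 to 119 CPM in Y-P (median 63.8). The ranges of Y-P and Y-E overlapped. The log2 fold change in Y-P vs. Y-E was 0.55 (SE 0.24, unadjusted p = 0.035, edgeR adjusted p = 0.136), the one unadjusted p under 0.05 of the set. Over all alternatives the adjusted p ran from 0.0445 to 0.359, and without Y-P replicate 4 the log2 fold change was 0.33.

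**Figure D2:**
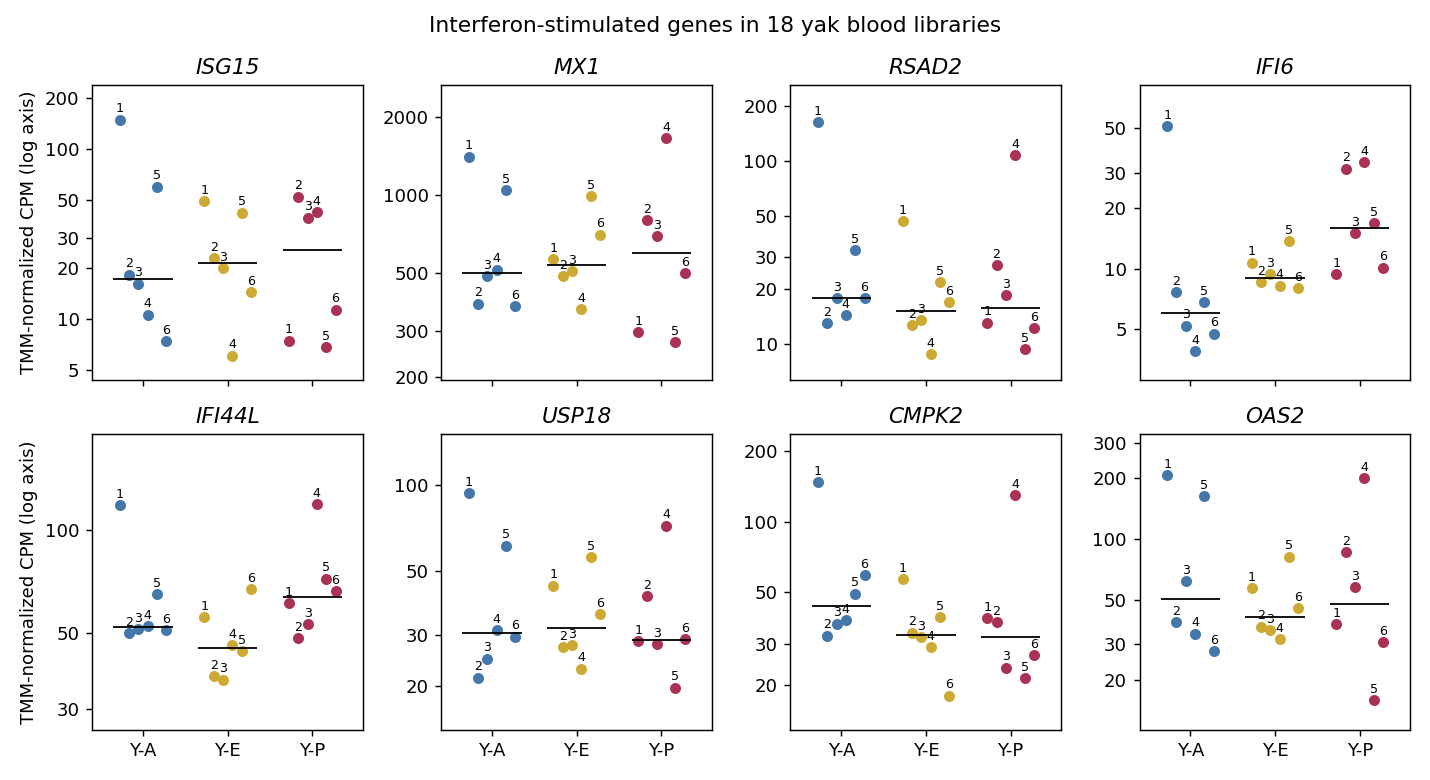
Level of each of the 8 genes (y axis, CPM after TMM scaling, log axis) by stage (x axis). Each point is 1 library, the number is its replicate, and the line is the median of 6 libraries. Replicate 1 is the highest of Y-A in all 8 panels and replicate 4 the highest of Y-P in all but ISG15, and the stages overlap in every panel.

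None of the 8 genes had stages whose values did not overlap, in any comparison. Of all tested genes 3.56% did between Y-P and Y-A, 6.04% between Y-P and Y-E and 0.303% between Y-E and Y-A. The spread within stages was large for this set. The SD of log2 CPM within stages had a median of 0.835 over the 8 genes and 0.335 over all tested genes. ISG15 had an SD of 1.35 and stood at the 99.3th percentile of all tested genes, RSAD2 an SD of 1.17, OAS2 of 1.05 and IFI44L of 0.430, the latter at the 68.2th percentile.

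**Figure D3:**
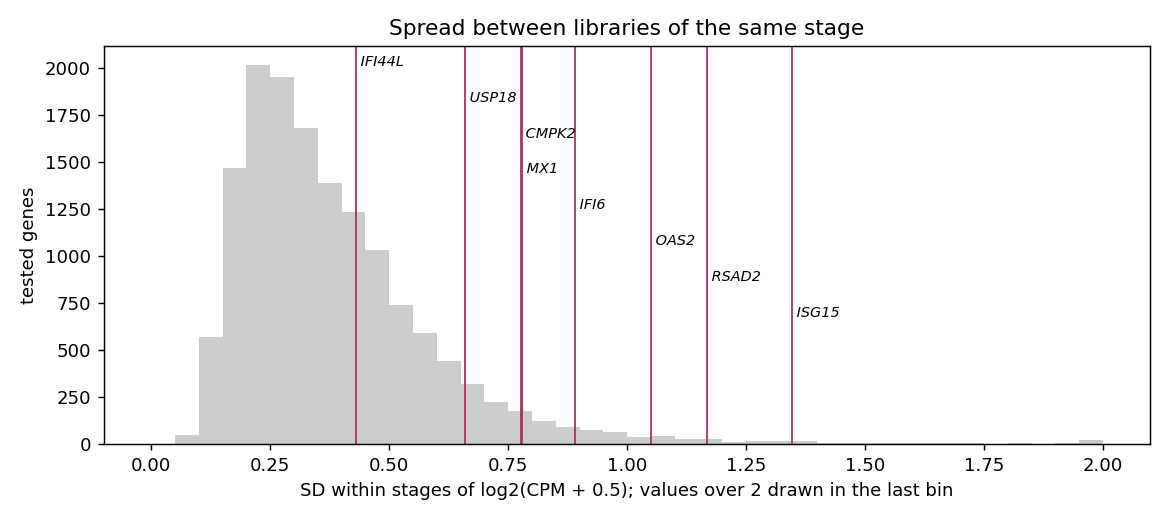
Number of tested genes (y axis) by the SD of log2(CPM + 0.5) within stages (x axis). Vertical lines mark the 8 genes, which run from 0.430 for IFI44L to 1.35 for ISG15 while the median of all 14508 tested genes is 0.335.

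In this set 2 libraries stood above the rest, Y-A replicate 1 and Y-P replicate 4. Y-A replicate 1 was the highest of its stage in 8 of 8 genes and Y-P replicate 4 in 7 of 8, ISG15 being the exception, where Y-P replicate 2 was higher. Both were the highest of their stage for 7 of the 8 genes, 71.0% of 31 other interferon-stimulated genes and 2.49% of all tested genes. RSAD2 in Y-A replicate 1 stood 9.26-fold above the median of the other 5 Y-A libraries, and in Y-P replicate 4 it stood 8.27-fold above the median of the other 5 Y-P libraries. For IFI6 these ratios were 9.85 and 2.26, for CMPK2 3.89 and 4.84, and for OAS2 5.36 and 5.31. The smallest were those of IFI44L, 2.31 and 1.94.

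Averaged over the 8 genes, the z-score of log2 CPM was 2.2 in Y-A replicate 1 and 1.81 in Y-P replicate 4. The next libraries were Y-A replicate 5 at 0.719, Y-P replicate 2 at 0.475, Y-E replicate 1 at 0.375 and Y-E replicate 5 at 0.367. The lowest were Y-E replicate 4 at −0.846 and Y-P replicate 5 at −0.823. No Y-E library reached the level of the first 2. Y-A replicate 1 had 12.1% of its counts in hemoglobin complex genes, in a stage that ran from 3.10% to 16.7%. Y-P replicate 4 had 0.0272%, the lowest of a stage that reached 0.376%, and the lowest sums of neutrophil and monocyte markers in Y-P, 2426 and 480 CPM. In Y-A replicate 1 these sums were not low for its stage. They were 5940 and 1179 CPM, where Y-A ran from 3237 to 7924 and from 805 to 1451 CPM. The part of these values in the levels of the 8 genes was not tested.

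**Figure D4:**
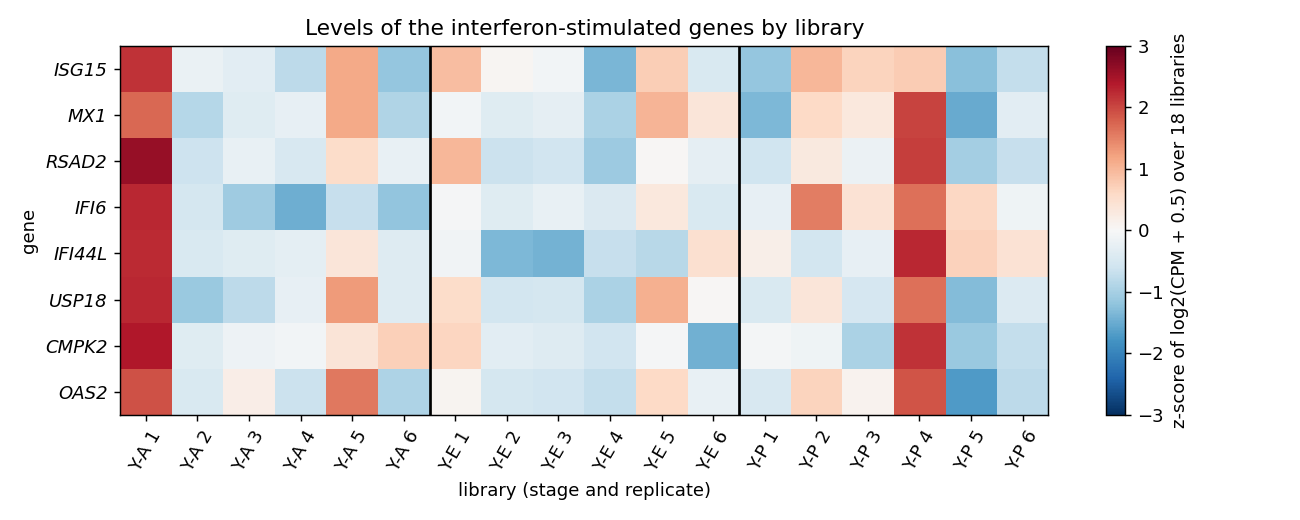
Z-score of log2(CPM + 0.5) over 18 libraries (color) for the 8 genes (rows) in each library (columns, black lines between stages). Y-A replicate 1 and Y-P replicate 4 are red throughout, with mean z-scores of 2.2 and 1.81, and no stage is red or blue as a whole.

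The direction in both comparisons of pregnancy depended on which of these libraries was in the fit. Without Y-A replicate 1 all 8 genes had a log2 fold change above 0 in Y-P vs. Y-A, from 0.080 for CMPK2 and 0.085 for USP18 to 0.69 for RSAD2 and 1.76 for IFI6. Without Y-P replicate 4 all but IFI6 lay below 0, RSAD2 at −1.43, CMPK2 at −1.03 and OAS2 at −0.96. RSAD2 had an edgeR adjusted p of 0.530 and 0.197 in these fits. In Y-P vs. Y-E, without Y-P replicate 4, 6 of the 8 genes lay below 0 and IFI6 and IFI44L above it at 0.77 and 0.33. With both libraries left out, an alternative chosen after seeing the data, IFI6 was the single gene called in Y-P vs. Y-A (log2 fold change 1.55, edgeR adjusted p = 0.0193) and 0 of 8 were called in the other comparisons.

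**Figure D5:**
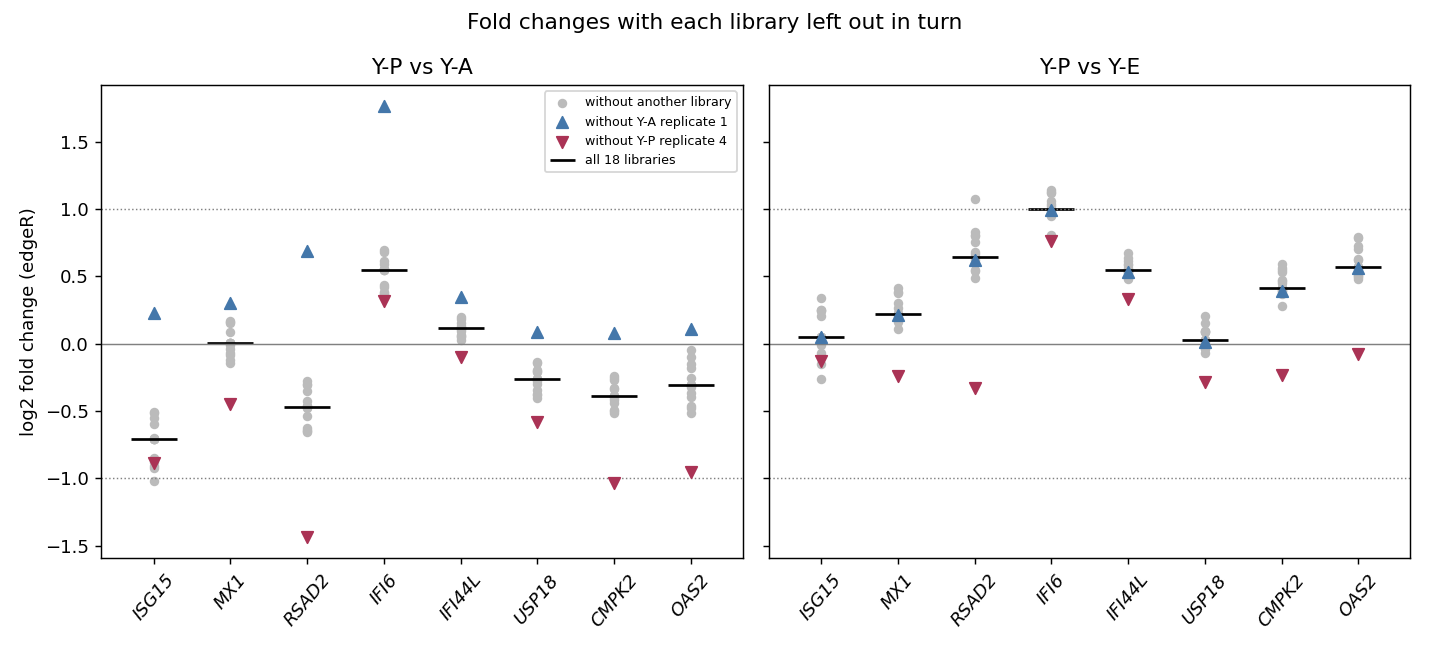
Log2 fold change (y axis) of the 8 genes (x axis) for Y-P against Y-A (left) and against Y-E (right) when each of the 18 libraries is left out in turn. Black bars are the fit over 18 libraries, triangles the fits without Y-A replicate 1 or Y-P replicate 4, and grey points the fits without 1 of the other libraries. For RSAD2 in Y-P vs. Y-A the triangles lie at 0.69 and −1.43.

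The 8 genes were compared with one another per transcript length in the deposited FPKM. The order of the medians over 18 libraries was MX1 at 74.3 FPKM, ISG15 at 28.2, USP18 at 19.4, OAS2 at 17.8, IFI44L at 16.8, RSAD2 at 13.1, CMPK2 at 10.3 and IFI6 at 4.94. MX1 was above ISG15 in 17 of 18 libraries. The neighbours from ISG15 down to RSAD2 were not separated, since each was above the next in 10 to 12 of 18 libraries. CMPK2 was below RSAD2 and above IFI6 in 15 of 18 each.

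Across libraries the levels of the 8 genes varied together. The correlation of log2 CPM over the 28 pairs ran from 0.342 for ISG15 with IFI44L to 0.922 for MX1 with OAS2, with a median of 0.692 over 18 libraries. The libraries share their depth and cell makeup between the genes, and Y-A replicate 1 and Y-P replicate 4 carried part of it: without them the median was 0.329 over 16 libraries. Over these 16 libraries the pairs among MX1, ISG15, USP18, OAS2 and RSAD2 ran from 0.680 to 0.855. The pairs that include IFI6 or IFI44L ran from −0.286 to 0.403, and those of CMPK2 with the first 5 genes from 0.130 to 0.589.

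The genes whose log2 CPM was most alike to the mean of the 8 over 18 libraries were DHX58 (r = 0.951), FAM3B (0.925), CMTR1 (0.920), UBA7 (0.902) and ASIC2 (0.889). DHX58 encodes the RNA sensor LGP2, CMTR1 the cap methyltransferase and UBA7 the activating enzyme of ISG15. Over the 16 libraries their correlations were 0.966, 0.897, 0.876, 0.859 and 0.721. FAM3B, the neighbour of MX1 in the deposited table, had a median of 1.03 CPM, and ASIC2 a median of 0.130 CPM, near the detection floor of 0.0620 to 0.0992 CPM. The 31 other interferon-stimulated genes had a median correlation of 0.711 with the 8 over 18 libraries, from −0.026 to 0.951. For 14 genes of the receptor, kinase, STAT and IRF group the median was 0.026, and for all other tested genes −0.012. Over the 16 libraries these medians were 0.537, 0.101 and −0.015.

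No other interferon-stimulated gene was called higher in pregnancy either. Of 54 listed names 31 had a row and were tested. In Y-P vs. Y-A, 0 were called higher and 1 lower, where 0.345% and 1.09% of all tested genes were, and the median log2 fold change was −0.19. In Y-P vs. Y-E 0 were called higher and 1 lower, against 0.448% and 2.22% of all tested genes, with a median of −0.09. With shares this low over all genes, 0 higher calls among 31 genes do not set this list apart. The gene called in both was PARP14, a mono-ADP-ribosyltransferase. OAS1, one of the genes named at the start, had a log2 fold change of −0.36 in Y-P vs. Y-A (edgeR adjusted p = 0.728). In Y-P vs. Y-E it had −0.09 (edgeR adjusted p = 0.931).

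PARP14 was lower in the Y-P libraries. It ran from 282 to 592 CPM in Y-A (median 327), 232 to 503 CPM in Y-E (median 407) and 133 to 291 CPM in Y-P (median 156). Its log2 fold change was −1.11 in Y-P vs. Y-A (SE 0.23, edgeR adjusted p = 0.00998) and −1.11 in Y-P vs. Y-E (SE 0.23, edgeR adjusted p = 0.00374). The highest Y-P library, replicate 4, lay just above the lowest Y-A library. Without Y-A replicate 1 the log2 fold change in Y-P vs. Y-A was −0.97 (adjusted p = 0.019), short of the fold threshold, and scaling by library size alone gave −0.92 and −0.94 in the 2 comparisons. The limma fits also fell short of it, at −0.89 and −0.91 in Y-P vs. Y-A and at −0.90 and −0.92 in Y-P vs. Y-E. The sum of the neutrophil markers was lower in Y-P as well, with a median of 3014 CPM against 4568 in Y-A and 8393 in Y-E. Its part in the difference of PARP14 was not tested.

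LAP3, a leucine aminopeptidase induced by interferon, was the single gene of this list higher in Y-P vs. Y-E by adjusted p alone, at a log2 fold change of 0.55 (SE 0.15, edgeR adjusted p = 0.0173). By adjusted p alone 14.4% of all tested genes differed in that comparison, 5.77% higher and 8.68% lower. Its level was 101.1 to 124 CPM in Y-E and 117 to 237 CPM in Y-P. The next smallest adjusted p-values in Y-P vs. Y-A were those of ZNFX1 (0.127), EIF2AK2 (0.234) and LAP3 (0.282), and in Y-P vs. Y-E those of SAMD9 (0.0645) and LGALS3BP (0.105), of which LAP3 had a log2 fold change above 0 and the others below it. All are induced by interferon, EIF2AK2 encoding the RNA-dependent kinase PKR and ZNFX1 an RNA sensor.

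Upstream of these genes, the receptor chains and the kinase TYK2 were lower in pregnancy than in estrus by adjusted p in edgeR. Of 15 listed names 14 had a row, and all 14 were tested. In Y-P vs. Y-A 0 were called by edgeR and 4 had an unadjusted p under 0.05, namely IFNAR1, IRF5, PIAS1 and TYK2, where 22.7% of all tested genes had one, all with a log2 fold change below 0 and with adjusted p-values of 0.055, 0.0565, 0.132 and 0.164. In Y-P vs. Y-E 0 were called higher and 2 lower, IFNAR1 and SOCS3, and by adjusted p alone 6 were lower, namely IFNAR1, TYK2, IFNAR2, SOCS3, PIAS1 and IRF1. Over all tested genes these shares were 2.22% and 8.68%. IFNAR1, a chain of the type I interferon receptor, ran from 379 to 474 CPM in Y-A, 442 to 731 CPM in Y-E and 131 to 406 CPM in Y-P. No Y-P library reached the lowest Y-E library, and 6.04% of all tested genes had no overlap between these stages. The log2 fold change of IFNAR1 was −1.10 in Y-P vs. Y-E (SE 0.21, edgeR adjusted p = 0.00212) and −0.68 in Y-P vs. Y-A (SE 0.20, edgeR adjusted p = 0.055).

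The other receptor chain, IFNAR2, had a log2 fold change of −0.64 in Y-P vs. Y-E (SE 0.15, edgeR adjusted p = 0.0105), and the kinase TYK2 one of −0.51 (SE 0.12, edgeR adjusted p = 0.009). The adjusted p rose above 0.05 for IFNAR2 with limma (0.0555 and 0.0576) and for TYK2 with limma (0.0666 and 0.0705) and with library size alone (0.0659), where TYK2 stood at −0.33, −0.34 and −0.35. SOCS3, an inhibitor of cytokine receptor signalling, had a log2 fold change of −1.06 (SE 0.27, edgeR adjusted p = 0.0153), which moved under the fold threshold in 7 of 27 alternatives, 3 of which each left out 1 library: −0.97 without Y-E replicate 2, −0.94 without Y-E replicate 3 and −0.97 without Y-P replicate 2. IFNAR1 was −0.96 without Y-P replicate 2. JAK1 and IRF9 were not called, with log2 fold changes of 0.06 and −0.13 in Y-P vs. Y-E, and STAT2 had −0.41 (edgeR adjusted p = 0.0561). Scaling by library size alone brought IFNAR1 to −0.94 and SOCS3 to −0.89, and the 2 limma fits gave −0.98 and −0.99 for IFNAR1 and −0.80 and −0.82 for SOCS3, all short of the fold threshold. Against Y-A the differences were smaller. In Y-P vs. Y-A the log2 fold change was −0.27 for SOCS3 (edgeR adjusted p = 0.597) and −0.30 for IFNAR2 (edgeR adjusted p = 0.245). In Y-E vs. Y-A it was 0.78 for SOCS3 (edgeR adjusted p = 0.540) and 0.33 for IFNAR2 (edgeR adjusted p = 0.777). The neutrophil marker sums given above were lower in Y-P than in Y-E as well. Their part in the differences between Y-P and Y-E was not tested.

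Of the genes of the interferon gamma pathway none was called by edgeR. Of 19 listed names 14 had a row and 13 were tested, with 0 called in each comparison and 4, 2 and 1 at an unadjusted p under 0.05 in Y-P vs. Y-A, in Y-P vs. Y-E and in Y-E vs. Y-A, where 22.7%, 29.3% and 6.2% of all tested genes had one. By adjusted p alone 2 receptor chains were lower in Y-P vs. Y-E, where 8.68% of all tested genes were, IFNGR2 at a log2 fold change of −0.79 (SE 0.15, edgeR adjusted p = 0.00199) and IFNGR1 at −0.58 (SE 0.14, edgeR adjusted p = 0.00981). With limma IFNGR1 was at −0.40 with adjusted p-values of 0.0669 and 0.0696 for the 2 pseudocounts. The smallest adjusted p of this list in Y-P vs. Y-A was that of IFNGR1, at a log2 fold change of −0.45 (SE 0.14, edgeR adjusted p = 0.0595). IFNG itself was rare, at 0.202 to 0.572 CPM in Y-A and 0.341 to 1.92 CPM in Y-P, and its log2 fold change of 1.25 in Y-P vs. Y-A had an edgeR adjusted p of 0.172. IDO1, the tryptophan-degrading enzyme induced by interferon gamma, was at 12.9 to 47.2 CPM in Y-A and 30.6 to 127 CPM in Y-P, with a log2 fold change of 1.0 and an adjusted p of 0.169. The smallest adjusted p-values beside these were those of CD274, an inhibitory ligand of T cells, in Y-P vs. Y-A (0.185) and of TAP1, a peptide transporter, in Y-P vs. Y-E (0.277).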

How the data were processed

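The authors trimmed reads with Cutadapt 1.9, aligned them with HISAT2 2.2.1 to the yak genome under Ensembl identifiers, and estimated FPKM with StringTie 2.1.6. The authors deposited FPKM values and raw counts per gene and library. How the counts were made, and their strand setting, are not given in the sources used here. Libraries were made from poly(A) RNA.

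The counts were tested with edgeR 4.0.16 in R 4.3.3: TMM scaling, filterByExpr, and a quasi-likelihood fit on stage over 18 libraries, two-sided, with Benjamini-Hochberg adjustment within each comparison over all tested genes. SEs derive from the fold change and its F statistic. Correlations used log2(CPM + 0.5). DESeq2 1.42.0 and limma 3.58.1, on log2(FPKM + 1) and log2(FPKM + 0.1), were alternatives. The test was checked on simulated counts with the same dispersion for all genes and without outlying libraries. That check therefore does not cover genes as variable as the members. Tables were handled with pandas 2.3.3 and figures drawn with matplotlib 3.10.9.

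The members and lists were chosen with earlier results of these data known. The genes named were the 8 members, each call in the lists, the 4 of each list with the smallest adjusted p in each comparison of pregnancy, and the 5 most alike in pattern. JAK1, STAT2, IRF9, IRF1 and OAS1 were named after their values were seen. Coordinates come from the deposited table, while the RefSeq gene order is that of assembly Bosgru_T2T1.0. The study tracked 6 cows, so libraries of different stages may come from the same cow. The labels do not link them, and the test treats all libraries as independent.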

Additional observations from a re-analysis of the deposited data

Results flagged for a closer look

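In 24 groups of 6 libraries, 1 for each of the 8 genes and 3 stages, 9 groups had a highest library whose gap to the next exceeded the 95% limit of Dixon's test. Chance gives about 1 in 20 groups where values are normally distributed, which CPM are not. All 9 were at the high end, and on log2 CPM 4 of 24 groups passed the limit: RSAD2, IFI6 and IFI44L in Y-A and CMPK2 in Y-P. The 9 groups concern 5 genes. Y-A replicate 1 stood apart for ISG15 at 148 CPM, RSAD2 at 164 CPM, IFI6 at 51.4 CPM, IFI44L at 118 CPM and CMPK2 at 148 CPM. Y-P replicate 4 stood apart for RSAD2 at 108 CPM, IFI44L at 119 CPM and CMPK2 at 130 CPM. Y-E replicate 1 stood apart for RSAD2 at 46.9 CPM. Genes of 1 library are not independent of one another, so the 5 and 3 groups of the first 2 libraries describe 1 library each.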

How the results depend on the processing

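Over 27 alternatives, 594 of the 648 fold changes of the 8 genes kept their sign and their side of the threshold, 52 changed sign and 2, both of IFI6, became calls. In Y-P vs. Y-E and in Y-E vs. Y-A 0 of the 8 were called under every alternative, while 1 was called in Y-P vs. Y-A without Y-A replicate 1 and 1 with Y-A replicate 1 and Y-P replicate 4 both left out (lowest 0 and highest 1 over the fits that leave out 1 library). The cause of these changes was not tested.

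Leaving out 1 library at a time gave these ranges of log2 fold change in Y-P vs. Y-A: ISG15 −1.02 to 0.23, MX1 −0.45 to 0.30, RSAD2 −1.43 to 0.69, IFI6 0.32 to 1.76, IFI44L −0.10 to 0.35, USP18 −0.58 to 0.085, CMPK2 −1.03 to 0.080 and OAS2 −0.96 to 0.11. For Y-P vs. Y-E they were ISG15 −0.26 to 0.34, MX1 −0.24 to 0.42, RSAD2 −0.33 to 1.08, USP18 −0.29 to 0.20, CMPK2 −0.23 to 0.59 and OAS2 −0.074 to 0.79. For Y-E vs. Y-A they were ISG15 −1.04 to 0.18, MX1 −0.41 to 0.090, RSAD2 −1.55 to 0.064, IFI6 −0.64 to 0.77 and USP18 −0.47 to 0.069. Over these fits 110 to 229 of all tested genes were called in Y-P vs. Y-A, 289 to 476 in Y-P vs. Y-E and 2 to 18 in Y-E vs. Y-A, the 18 without Y-E replicate 6.

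With Y-A replicate 1 and Y-P replicate 4 both left out, the signs that changed were those of ISG15 (0.065) and MX1 (−0.13) in Y-P vs. Y-A. In Y-P vs. Y-E they were ISG15 (−0.13), MX1 (−0.24), RSAD2 (−0.33), USP18 (−0.29), CMPK2 (−0.23) and OAS2 (−0.075), and in Y-E vs. Y-A ISG15 (0.20), MX1 (0.11), RSAD2 (0.074), IFI6 (0.78) and USP18 (0.084). The calls over all genes in Y-P vs. Y-A were then 119.

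With limma, USP18 changed sign in Y-P vs. Y-A (0.024 with a pseudocount of 1 and 0.026 with 0.1) and IFI6 in Y-E vs. Y-A (0.17 and 0.26). With these pseudocounts limma called 128 and 343 genes in Y-P vs. Y-A, and 143 with a pseudocount of 1 in Y-P vs. Y-E, against 208 and 387 by edgeR. By adjusted p alone 846 and 2096 genes passed, and in Y-E vs. Y-A DESeq2 called 9 genes against 2. The split of the calls moved with the scaling: 24.0% were higher in Y-P vs. Y-A and 16.8% in Y-P vs. Y-E with TMM, and 55.6% and 41.1% with library size alone, where the median of all genes was at 0.19 and 0.18.

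With the replicate number as a block 0 of the 8 genes were called, ISG15 in Y-P vs. Y-A changed sign to 0.15 and IFI6 in Y-E vs. Y-A to 0.13, and SOCS3 in Y-P vs. Y-E lost its call at −0.99. The block gave 11 calls over all genes in Y-E vs. Y-A, 256 in Y-P vs. Y-A and 421 in Y-P vs. Y-E. Libraries with the same number deviated together with a correlation of −0.0819 to 0.653 over 18 pairs, 14 of them over 0.1, and in 12 of 18 the best match was the library of the same number, with all 6 of the pairs between Y-A and Y-E over 0.1. The study tracked 6 cows, but the labels do not say that the number marks the cow.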

Other observations

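Type I interferon genes themselves had few counts in blood. The deposited annotation gives 6 unnamed genes the GO terms of type I interferon, a group chosen after its values were seen, and 3 of them passed the filter on low counts. Their summed counts ran from 100 to 208 per library, and 0 of the 3 were called by edgeR in any comparison, with 0 at an unadjusted p under 0.05. The smallest adjusted p by edgeR in a comparison of pregnancy was 0.357. Genes of this family can be alike in sequence, and the split of reads between these 6 was not tested.

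The gene next to IFI44L in the deposited table, ENSBGRG00000002150, is protein-coding and has no name there. In the RefSeq order of yak genes IFI44 stands at this place, on the side of IFI44L away from PTGFR, but a place in the order does not give the gene its name and its identity was not tested. Its level ran from 10.5 to 48.6 CPM in Y-A, 11.3 to 17.2 CPM in Y-E and 6.18 to 32.9 CPM in Y-P, and its log2 CPM had a correlation of 0.881 with the mean of the 8 genes over 18 libraries. Its log2 fold change was −0.27 in Y-P vs. Y-A (SE 0.36, edgeR adjusted p = 0.705), 0.30 in Y-P vs. Y-E (adjusted p = 0.633) and −0.57 in Y-E vs. Y-A (adjusted p = 0.916).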
